A study of Mus musculus with 16 samples.

Results

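Ion channel genes were taken as every gene on the array whose platform symbol begins with Kcn followed by a letter, Hcn followed by a digit, Scn followed by a digit and the letter a or b, or Cacn followed by a, b or g. This gave 110 genes, measured by 168 probes, of the 16593 genes and 25697 probes on the array. They encode potassium, pacemaker, sodium and calcium channels and the helper subunits of these channels. Of the 168 probes, 141 were detected on none of the 16 arrays, and 87 of the 110 genes had no probe detected anywhere. Probes of 16 genes, 19 in all, were detected on both arrays of at least 1 group and were tested.

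The arrays held RNA from mouse embryonic stem cells that carry Rest (REST +/+, called control here) or lack it (REST -/-, called knockout). Cells were kept undifferentiated with leukemia inhibitory factor on gelatin without feeder cells (day 0), or grown without that factor as embryoid bodies, started in hanging drops, for 3, 6 or 9 days. Each of the 8 groups had 2 arrays. The labels do not state separate cultures for them, so the p-values below cover the array-to-array spread alone, and this may be technical. The labels name 1 genotype of each kind and give neither clones nor the way the knockout was made, so the deletion and other differences between these lines cannot be told apart.

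Ion channels are membrane pores that let ions cross down their gradients. Voltage-gated sodium and calcium channels carry the inward currents of nerve and muscle impulses, and potassium channels carry the outward currents that end an impulse and set the resting potential. Hcn channels open when the membrane becomes more negative and pass the inward current that drives pacemaker activity in heart and nerve. REST represses many neuronal genes outside neurons, several channel genes among them, by binding a DNA element named RE1.

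Per array, 6300 to 9045 probes of the whole table were detected, meaning a deposited detection p-value below 0.01, which is 24.5% to 35.2% of probes. Between 5 and 19 channel probes were detected per array, or 2.98% to 11.3%. The fewest were on a control day 3 array, and the most were on the knockout day 9 arrays, with 19 and 18 against 15 and 14 on the control day 9 arrays. Arrays of the same group correlated across the 10241 tested probes with Pearson's r of 0.98 to 0.991. Rest itself could not serve as a check of the labels. Its 1 probe was detected on 0 arrays, with intensities of 4.00 to 44.0 in control and 1.26 to 32.0 in knockout arrays. All 7 pluripotency markers examined, Pou5f1 and Nanog among them, were detected on both arrays of day 0 in both genotypes.

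Detection was uneven across the channel families. Of the channel probes, 11.3% passed the requirement of detection on both arrays of a group, against 39.9% of all probes. The pore subunits of voltage-gated potassium channels were the most numerous family, with 42 probes for 32 genes, and 4 of these genes passed. Two-pore leak potassium channels, which stay open at rest, had 22 probes for 13 genes and 4 genes that passed. Calcium channel pore subunits passed for 2 of 7 genes, through 4 of 16 probes. Both Hcn genes on the array passed, Hcn2 and Hcn3, each with 1 probe of the family's 4.

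Whole families stayed under detection. All 19 probes of the 12 inward rectifier genes (Kcnj), which hold the resting potential of heart muscle and other cells, were detected on no array. The same held for the 5 pore subunits of sodium channels, namely Scn1a, Scn7a, Scn8a, Scn10a and Scn11a. None of the 12 helper genes of voltage-gated potassium channels (20 probes) passed, and neither did any of the 8 calcium channel gamma subunits (11 probes) or the 3 sodium channel beta subunits (4 probes). The 141 probes that were never detected had deposited intensities between −72.3 and 76.2. A probe under detection gives only an upper bound, so low expression is not told apart from none.

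**Figure D1:**
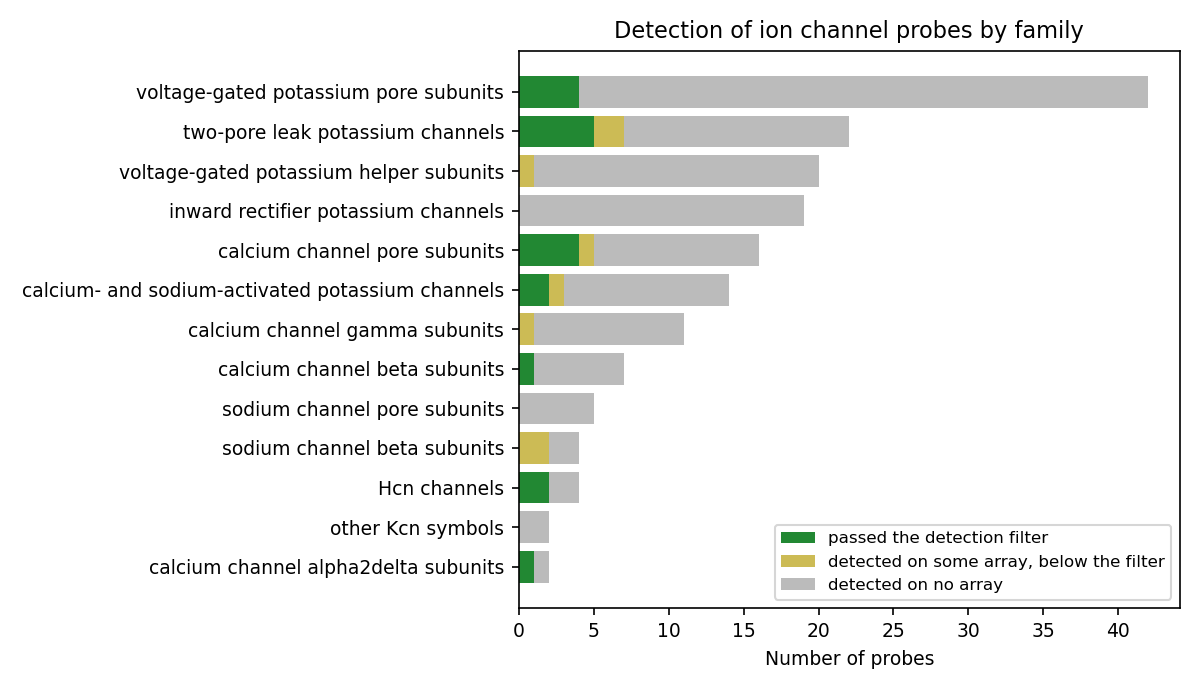
Number of channel probes on the horizontal axis for each channel family, split into probes that passed the detection filter, probes detected on some array but below the filter, and probes detected on no array. Undetected probes make up most of every family with more than 4 probes, and inward rectifiers and sodium channel pore subunits have none that were detected.

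Most of the channels that passed were detected in both genotypes. Of the 19 probes, 14 were detected on both arrays of some group in control and of some group in knockout. Another 4 met this only in the knockout: Hcn3, the potassium channel Kcnh2 (the erg channel that repolarizes heart muscle), the mechanically gated leak channel Kcnk2 and the calcium-activated channel Kcnn1. One, Kcnmb2, met it only in the control. The split rests on few arrays. Hcn3 was detected on 2 control and 7 knockout arrays, Kcnh2 on 2 and 3, Kcnk2 on 0 and 2, and Kcnn1 on 1 and 2. None of these 4 was called different between the genotypes on any day or on average, so the detection pattern alone does not show a difference.

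**Figure D2:**
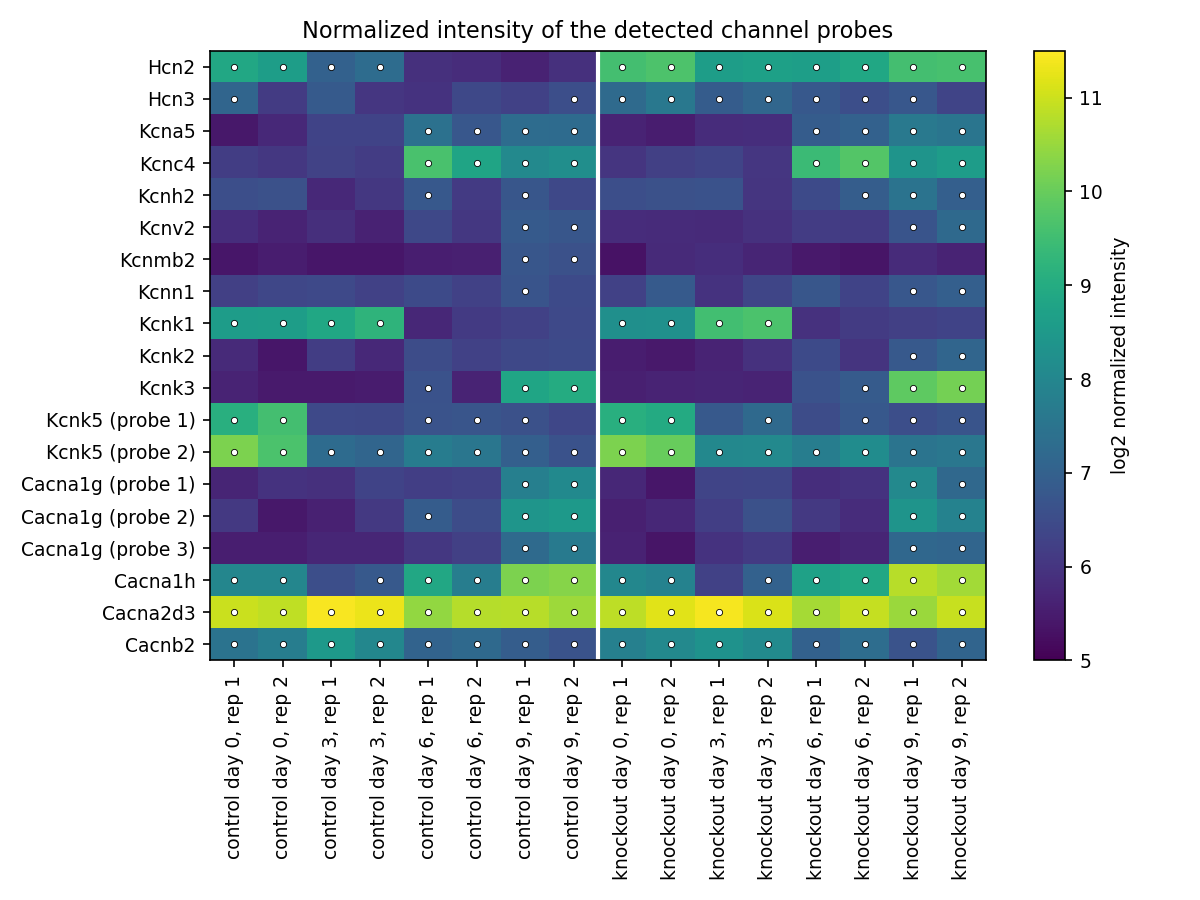
Normalized log2 intensity (colour) of the 19 channel probes that passed the filter (rows) on each of the 16 arrays (columns, control left of the white line, knockout right), with a dot where the probe was detected. Hcn2 is dark on the control day 6 and day 9 arrays and bright on every knockout array. Kcnk5 probe 1 is ILMN_1232263 and probe 2 is ILMN_2982781.

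A further 7 genes were detected on some arrays without a probe that passed the filter, through 8 probes. These were the calcium channel gene Cacna1a and the gamma subunit gene Cacng7 on 1 knockout array each, at day 0 and day 3, and the potassium channel helpers Kcne1l and Kcnmb4 on 1 control day 3 array each. The leak channel gene Kcnk6 was detected on 1 control and 1 knockout day 9 array by one probe and on the other knockout day 9 array by another, while its remaining probe was never detected. The sodium channel beta subunits Scn2b and Scn3b were each detected on 1 knockout day 9 array. A threshold of 0.01 lets about 1% of probes without target through on each array, so single detections carry little weight.

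Between the genotypes, few of the tested channels differed, and Hcn2 dominated. With limma's test over the 10241 probes that passed the filter, 1 channel probe was called at day 0 at an adjusted p below 0.05 (5.26% of the 19, against 1.82% of all tested probes). At day 3, 2 were called (10.5% against 6.09%), and at day 6, 1 (5.26% against 1.44%). At day 9, 4 were called (21.1% against 4.28%), 3 of them higher in the knockout and 1 lower, where 2.28% of all tested probes were higher and 1.99% lower. Averaged over the 4 days, 3 were called (15.8% against 9.35%), each of them higher, as were 4.56% of all tested probes. The median log2 difference of the 19 probes, in the order of the days, was 0.00, 0.24, 0.11 and 0.17, against 0.00, 0.00, −0.01 and −0.01 over all tested probes. Of the 19 probes, Kcnk2, Kcnh2 and Kcnn1 entered the test through knockout day 9 alone and Kcnmb2 through control day 9 alone. Hcn3 entered through the knockout groups of days 0, 3 and 6 alone. The genes called were Hcn2 on every day, Kcnk5 at days 3 and 9, and Kcnk3 and Kcnmb2 at day 9.

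**Figure D3:**
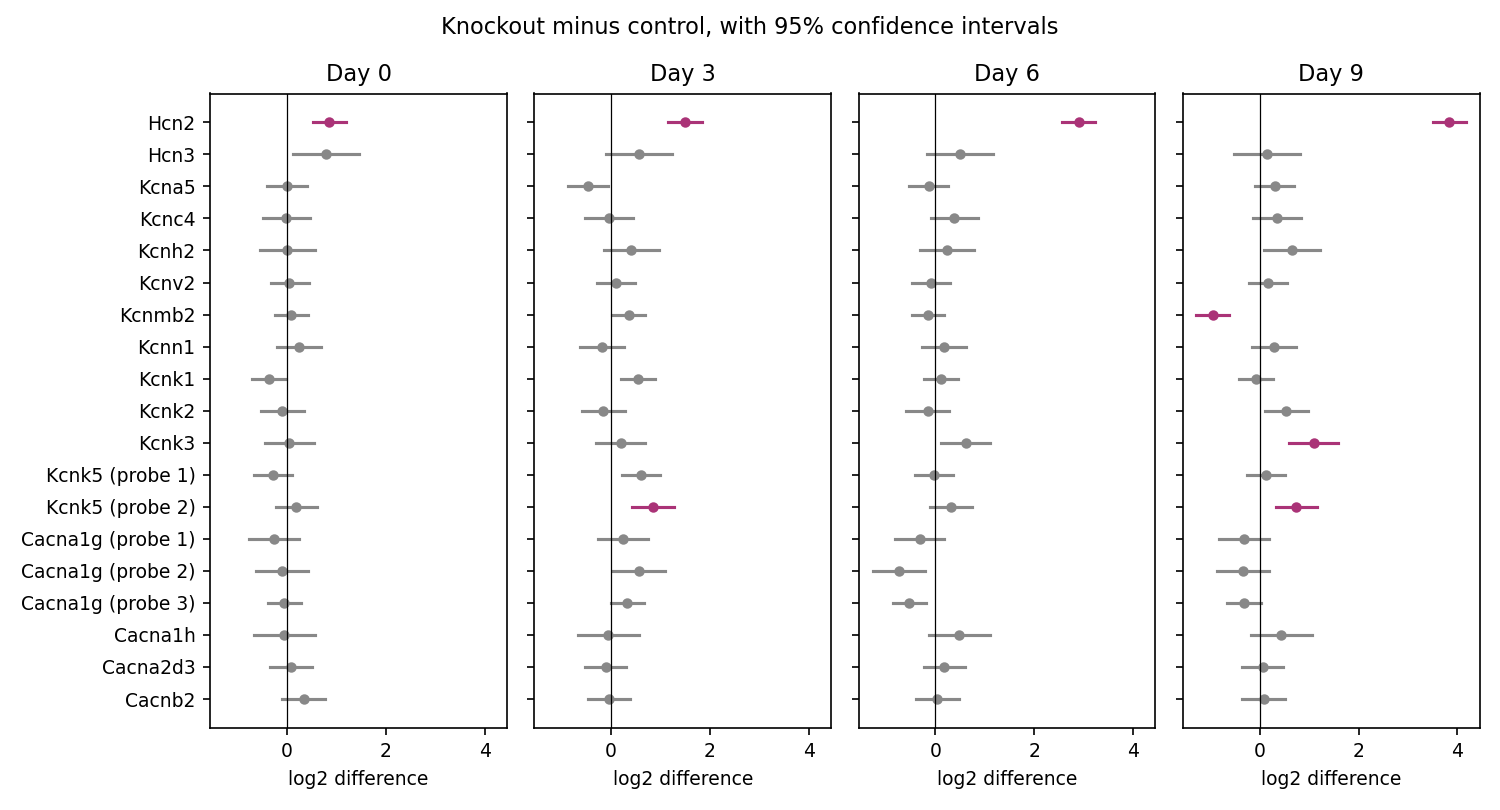
Log2 difference, knockout minus control, of each tested channel probe (rows) at day 0, 3, 6 and 9 (panels), with 95% confidence intervals from the limma fit and probes called at an adjusted p below 0.05 in purple. The Hcn2 difference is 0.86 at day 0 and 3.84 at day 9, while most other intervals include 0.

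Hcn2, a pacemaker channel subunit expressed in heart and brain, was the channel gene with the largest genotype difference. On the control arrays the deposited intensity of its only probe (ILMN_2672624) started at 381 and 327 on day 0, went to 94.9 and 125 on day 3 and 32.4 and 23.9 on day 6, and ended at 6.36 and 31.6 on day 9. On the knockout arrays it started at 747 and 763, went to 365 and 451 and then 428 and 510, and ended at 869 and 790. Every knockout array lay above both control arrays of its day, and the control arrays of days 6 and 9 were not above background.

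The knockout exceeded the control in Hcn2 by a log2 difference of 0.86 ± 0.16 at day 0 (SE, 2 arrays per genotype, 1.82-fold, limma adjusted p = 0.00905) and by 1.49 ± 0.16 at day 3 (2.81-fold, adjusted p = 2.44e-05). With the control under detection later on, the knockout exceeded it at least 4.61-fold on day 6, with an adjusted p of 1.10e-08, and at least 8.37-fold on day 9, with an adjusted p of 2.83e-10. Here and below, such a bound sets the brighter group against the lowest normalized signal of any detected probe on each array, or the probe's own signal where that is higher. The day 0 call was lost without the second array of either genotype, without background correction and with the authors' normalized values, and its adjusted p over all settings tried ran from 0.00257 to 0.564. The calls at day 6, at day 9 and on average held in every setting tried.

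Over time Hcn2 fell in the control and not in the knockout. From day 0 to day 9 the control fell at least 4.70-fold (adjusted p = 4.49e-10), whereas the knockout change was −0.03 ± 0.16 on the log2 scale (95% confidence interval −0.36 to 0.31, adjusted p = 0.892). The difference between these changes was 2.98 ± 0.22 (adjusted p = 1.16e-06), a fitted size that depends on the background level of the control. Within the knockout the log2 level was lowest at days 3 and 6, with group means of 8.66 and 8.76, and at 9.62 and 9.59 on days 0 and 9.

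**Figure D4:**
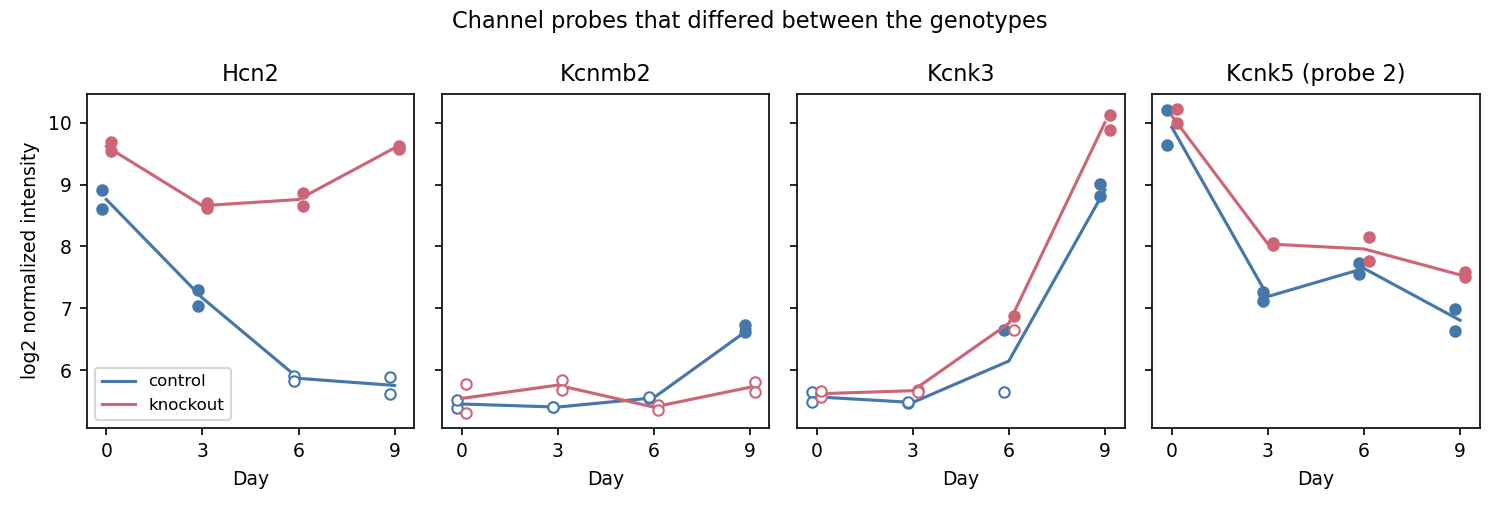
Normalized log2 intensity against day of differentiation for the 4 channel probes that differed between genotypes, control in blue and knockout in red, each point 1 array, filled where detected, and lines through the group means. Hcn2 falls in control and stays high in knockout, Kcnmb2 is detected only in control at day 9, Kcnk3 rises in both, and Kcnk5 probe 2 (ILMN_2982781) falls in both.

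Several neuron markers were also higher in the knockout, on days that varied from gene to gene. Stmn2 did not differ at day 0 (0.04 ± 0.16, limma adjusted p = 0.943), and Nefl was called on no day. Of 15 neuron markers on the array, 7 were tested, and in the knockout 1 was called higher on day 0, then 4, 3 and 5 on the later days in turn, with none lower. Those called at day 9 were Map2, Stmn2, Nefm, Ina and Gap43, cytoskeletal and growth cone genes. The summed normalized intensity of the 15 markers at day 9 was 1170 to 1290 on the control and 3070 to 3260 on the knockout arrays, and at day 0 it was 2330 to 2560 and 2760 to 2800. The defining neuron genes Tubb3, Dcx, Rbfox3, Elavl4, Snap25, Syt1, Slc17a6 and Gad1, each read by its brightest probe, were detected on no array. The endocrine gene Chga, which encodes the granule protein chromogranin A, was higher in the knockout on all 4 days, by at least 4.56-fold at day 0 and at least 5.10-fold at day 9 (adjusted p = 1.52e-06 and 1.02e-07), while Chgb, Ins2 and Gcg were under detection everywhere. Sst, the somatostatin gene, was higher as well, by at least 1.34-fold at day 6 and at least 1.36-fold at day 9 (adjusted p = 0.00167 and 0.00131). Chga entered the test through knockout groups alone, and Sst through knockout day 9 alone. Elavl3, the neuron marker called on day 0, entered through knockout day 0 alone. For these genes the p values are a description and not independent support for a difference. The part of neuronal or endocrine cells in the Hcn2 difference was not tested, and in these bulk samples fewer cells of a type and less RNA per cell cannot be told apart.

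The promoter of Hcn2 is shown because its probe carries the main difference, together with that of Kcnh6, the one channel promoter that held both of the RE1 part motifs searched. The sequences are from RefSeq (build GRCm38.p6, plus strand, 300 bases that span the annotated start), at chr10:79716384-79716683 for Hcn2 and chr11:106007898-106008197 for Kcnh6. Capitals mark CAGCACC and GGACAGC, searched on both strands, which do not overlap each other here.
Hcn2: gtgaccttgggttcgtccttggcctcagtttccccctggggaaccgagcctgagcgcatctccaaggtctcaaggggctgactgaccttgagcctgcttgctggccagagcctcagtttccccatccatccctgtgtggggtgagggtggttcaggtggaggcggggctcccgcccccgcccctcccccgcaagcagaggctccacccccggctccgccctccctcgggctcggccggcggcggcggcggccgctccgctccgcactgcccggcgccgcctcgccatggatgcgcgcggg
Kcnh6: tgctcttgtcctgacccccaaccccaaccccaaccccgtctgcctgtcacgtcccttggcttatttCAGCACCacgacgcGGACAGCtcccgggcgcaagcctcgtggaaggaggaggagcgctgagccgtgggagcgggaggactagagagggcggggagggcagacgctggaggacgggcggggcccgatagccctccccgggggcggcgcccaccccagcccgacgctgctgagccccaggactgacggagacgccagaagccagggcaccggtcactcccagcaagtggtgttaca
The Hcn2 window held neither motif within its 300 bases, of which 72.3% were G or C, with 26 CpG pairs. The Kcnh6 window held both with 7 bases between them, and 69.3% of it was G or C. Kcnh6, an erg-type potassium channel gene, had 2 probes and neither was detected on any array. A missing match says only that these letters are not in this window.

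Promoters were available for 85 of the 110 channel genes (116 promoters, since some genes have several), including 11 of the 16 that passed detection. CAGCACC occurred in 8 of the 116 (6.90%) and in 7.14% of all 32851 promoters of the same length. GGACAGC occurred in 14 (12.1%) against 6.56%, and both occurred in 1 (0.862%) against 0.575%. Among the 16 promoters of channels that passed, 1 held CAGCACC (Kcnh2), 1 held GGACAGC (Kcnk1), and 0 held both. These counts describe the letters present and were not tested.

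Hcn3, the other pacemaker subunit, stayed near background in the control. Its probe read 104 and 42.1 on the control arrays at day 0, then 81.2 and 34.1, then 35.4 and 74.0, and 60.3 and 86.9 at day 9. In the knockout it read 137 and 169, then 97.4 and 140, then 108 and 87.7, and 116 and 66.4 at day 9. The normalized log2 levels of the genotypes did not overlap at days 0, 3 and 6 and overlapped at day 9. The probe entered the test through the knockout groups of days 0, 3 and 6 alone, so this separation is not independent support for a difference. Channels that were not called also had levels without overlap, such as Cacna1h at day 9. No day was called (adjusted p from 0.267 to 0.881), and the average difference of 0.50 ± 0.16 missed the threshold (adjusted p = 0.0585). Within the knockout, Hcn3 fell from day 0 to day 9 by 0.86 ± 0.31 on the log2 scale (adjusted p = 0.0225), a call lost without the second knockout array of day 0 or day 9, without background correction and with the authors' normalized values. Knockout day 0 is among the groups that admitted the probe and knockout day 9 is not, so this p is a description. The change in the control was −0.22 ± 0.31 (adjusted p = 0.546), and the 2 changes were not shown to differ (−0.64 ± 0.44, adjusted p = 0.637).

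Among the leak channels, Kcnk3 showed the largest rise during differentiation. Kcnk3 encodes TASK-1, an acid-sensitive background potassium channel found in heart, brain and other tissues. Its probe (ILMN_2669487) read 7.83 and −7.47 in control and 1.64 and 10.5 in knockout at day 0, then −9.70 and −6.45 in control and 11.4 and 8.76 in knockout at day 3. At day 6 it read 92.7 and 10.1 in control and 95.1 and 114 in knockout, and at day 9 it read 434 and 523 in control and 1100 and 1120 in knockout. Both knockout arrays of day 9 lay above both control arrays, and no array of days 0 and 3 was above background.

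By day 9 Kcnk3 was at least 3.20-fold above day 0 in the control (adjusted p = 9.70e-09) and at least 8.64-fold in the knockout (adjusted p = 4.98e-10). At day 9 the knockout exceeded the control by 1.09 ± 0.23 on the log2 scale (2.13-fold, adjusted p = 0.0127), and on average over the days by 0.48 ± 0.12 (adjusted p = 0.0166). The day 9 call was lost when either control array or the second knockout array of that day was left out, and both calls were lost without background correction and with the authors' normalized values. The difference in the change from day 0 was 1.04 ± 0.33 and was not called (adjusted p = 0.171).

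Heart muscle markers rose over the same days. Of 12 cardiomyocyte markers on the array, 6 were tested, and 6 rose from day 0 to day 9 in the control and 5 in the knockout. Their summed intensity at day 9 was 5530 to 6240 in control and 3890 to 4000 in knockout, an order opposite to that of Kcnk3. Between the genotypes at day 9, 1 of the 6 was called, the ventricular myosin light chain gene Myl2, which was lower in the knockout. Myh7, Tnni3, Nppa, Ryr2 and Nkx2-5 were under detection in every group, and Tnni1 was detected on 1 array of each day 6 and day 9 group and was not tested. The 6 tested were Myh6, Myl2, Myl7, Myl4, Tnnc1 and Actc1. The part of heart muscle cells in the Kcnk3 levels was not tested.

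Kcnk5, which encodes the alkaline-sensitive leak channel TASK-2, ran the other way and fell in both genotypes. The probe detected on all 16 arrays (ILMN_2982781) had normalized log2 levels of 10.21 and 9.65 in control at day 0, then 7.27 and 7.11, then 7.74 and 7.55, and 6.98 and 6.63 at day 9. In the knockout the levels were 10.23 and 10.00, then 8.03 and 8.05, then 7.76 and 8.16, and 7.50 and 7.58 at day 9. The genotypes overlapped at day 0, and the knockout arrays were above the control arrays on the later days.

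From day 0 to day 9 this probe fell, with log2 changes of −3.13 ± 0.20 in control and −2.58 ± 0.20 in knockout (adjusted p = 3.12e-09 and 2.49e-08). The knockout was higher by 0.85 ± 0.20 on day 3 and by 0.74 ± 0.20 on day 9, with adjusted p values of 0.0169 and 0.0463. On average it was higher by 0.52 ± 0.10 (adjusted p = 0.00364), and this call held in all 24 settings tried. The day 3 call and the day 9 call were each lost when any single array of that day was left out, without background correction and with the authors' normalized values. The day 9 call was also lost with an offset of 50, with no filter and at a detection p below 0.05, and so held in 3 of 12 settings. A second probe of Kcnk5 (ILMN_1232263) fell as well, by changes of −2.82 and −2.41. Its genotype differences were 0.60 ± 0.18 on day 3 and 0.13 ± 0.18 on day 9, neither of which was called (adjusted p = 0.0662 and 0.794), and its average difference was 0.10 ± 0.09 (adjusted p = 0.518). The probes thus gave differences of like size on day 3 and not on day 9 or on average. The third probe was detected on no array.

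Of the 7 pluripotency markers, 1 was called higher in the knockout on day 3 (Sox2), 1 on day 6 (Dppa5a) and 2 on day 9, with none lower. Their summed normalized intensity on day 3 was 19200 to 21200 in control and 29800 to 31800 in knockout, and on day 9 it was 2260 to 3110 and 3630 to 5090. Sox2 was higher in the knockout at day 3 (0.92 ± 0.22, adjusted p = 0.0221), and Nanog and Dppa5a were higher at day 9 (1.19 ± 0.26 and 1.78 ± 0.27, adjusted p = 0.0155 and 0.00077). Whether undifferentiated cells carried the Kcnk5 difference was not tested.

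The other leak channels that passed were Kcnk1 and Kcnk2. Kcnk1, which encodes the weakly conducting TWIK-1, was detected on all day 0 and day 3 arrays of both genotypes and on none of days 6 and 9. Its probe read 303 and 327 in control and 289 and 272 in knockout at day 0, then 386 and 543 in control and 733 and 921 in knockout at day 3. From day 6 on, no reading exceeded 76.7 in either genotype. Kcnk1 was at least 4.21-fold lower at day 9 than at day 0 in control and at least 3.28-fold lower in knockout (adjusted p = 1.49e-08 and 6.18e-08). Its probe entered the test through the day 0 and day 3 groups alone, so these p values are a description. Its day 3 difference of 0.54 ± 0.16, higher in the knockout, missed the threshold (adjusted p = 0.0675).

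Kcnk2, the TREK-1 channel, reached detection only on the 2 knockout day 9 arrays, at 123 and 132 against 73.0 and 78.7 in the control. In the knockout it was at least 1.06-fold higher at day 9 than at day 0 (adjusted p = 1.19e-05), but knockout day 9 is also the one group through which the probe entered the test. The control change was called too (adjusted p = 0.00171), although no control array was above background, and no fold is given. The genotypes were not called different at day 9 (adjusted p = 0.186).

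Of the voltage-gated potassium pore subunits, Kcna5, Kcnc4 and Kcnv2 rose in both genotypes. Kcnc4, a Shaw-type channel of fast-firing cells, had its highest readings on day 6. Its probe read 38.0 to 56.0 on the 8 arrays of days 0 and 3, then 811 and 461 in control and 725 and 950 in knockout at day 6, and 254 and 302 against 380 and 385 at day 9. From day 0 to day 9 it rose at least 1.86-fold in control and at least 3.01-fold in knockout (adjusted p = 1.74e-06 and 2.90e-07). Its probe entered the test through the day 6 and day 9 groups alone, so these p values are a description. The genotypes differed at day 9 by 0.35 ± 0.23, which was not called (adjusted p = 0.494).

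Kcna5, a delayed rectifier channel gene expressed in heart muscle, was detected on all 8 arrays of days 6 and 9 and on no earlier one. It rose at least 1.04-fold in control and at least 1.61-fold in knockout from day 0 to day 9 (adjusted p = 1.25e-06 and 2.22e-07). Kcnv2, a modifier subunit that does not form a channel on its own, was detected on all 4 arrays of day 9 only. Its readings there were 106 and 102 in control and 111 and 142 in knockout, and the change from day 0 was called in both (adjusted p = 0.000121 and 4.33e-05). Day 0 was under detection, so the knockout rose at least 1.05-fold and no fold is given for the control. The probes of Kcna5 and Kcnv2 entered the test only through the groups where they were detected, so these p values are a description. Neither gene was called between the genotypes on any day.

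Kcnh2 was close to background throughout, at 15.7 to 106 on the control and 39.8 to 201 on the knockout arrays. It rose from day 0 to day 9 in the knockout by at least 1.25-fold (adjusted p = 0.0413) and was not called in the control (adjusted p = 0.977). Knockout day 9 is also the one group through which this probe entered the test, so the p is a description. The knockout call was lost in 6 of 12 settings: without either array of day 0 or the first of day 9, without background correction, with the authors' normalized values and with no filter. The difference between the changes was not called (adjusted p = 0.558). Its other probes were never detected, and the same held for the other probes of Kcnc4, Kcnk2, Hcn3 and Cacnb2.

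Kcnmb2, a beta subunit of the large-conductance calcium-activated potassium channel, was the tested channel called lower in the knockout. In control its probe (ILMN_1259717) read −15.5 and −5.0 on day 0, then −15.5 and −14.3, then −0.628 and 1.64, and 96.1 and 90.5 on day 9. In the knockout it read −26.7 and 20.7, then 24.2 and 10.8, then −10.6 and −19.3, and 25.6 and 8.92 on day 9. Only the 2 control day 9 arrays were above background, and the genotypes did not overlap on that day.

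At day 9 Kcnmb2 was at least 1.10-fold higher in control (adjusted p = 0.00148). The probe entered the test only through control day 9, the group where it is high, so this p is a description and not independent support for a difference. The change from day 0 was called in control (adjusted p = 6.19e-06) and not in knockout (adjusted p = 0.331), and no fold is given, since day 0 was not above background. The fitted difference between these changes was −1.04 ± 0.22 (adjusted p = 0.0222), a size that depends on the background and was called in 8 of 16 settings. The day 9 call was lost without background correction and with the authors' normalized values. Its second probe was never detected. Actg2, a smooth muscle actin gene, was lower in the knockout at day 9 too (−2.36 ± 0.29, adjusted p = 9.31e-05), and the summed intensity of 5 smooth muscle markers was 5290 to 5920 in control and 3140 to 3370 in knockout. Most of that sum is Acta2, the other tested marker, with day 9 means of 12.16 in control and 11.52 in knockout on the log2 scale. Acta2 was not called between the genotypes at day 9. Cnn1, Tagln and Myh11 of that list were under detection at day 9. Of 5 tested markers of visceral and liver-type endoderm, 2 were lower in the knockout at day 9 and none higher. Alb, the albumin gene, was at least 8.97-fold higher in control (adjusted p = 1.43e-10) and, like Kcnmb2, was detected on both arrays of control day 9 and on no other array. Its p is likewise a description, since Alb entered the test through that group alone. Afp, the alpha-fetoprotein gene, differed by −1.67 ± 0.25 (adjusted p = 0.000721). The summed intensity of the 6 endoderm markers at day 9 was 24900 to 28300 in control and 9900 to 10000 in knockout, with Amn under detection in both. The part of smooth muscle or endoderm cells in the Kcnmb2 difference was not tested. Kcnn1, a small-conductance calcium-activated channel gene, had group means from 6.15 to 6.86 on the log2 scale and was called in no comparison.

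T-type calcium channels, which open near the resting potential and contribute to pacemaking in embryonic heart, rose in both genotypes. Cacna1h was detected on 7 of 8 arrays of each genotype. Its probe read 193 and 213 in control and 241 and 208 in knockout at day 0, between 51.7 and 129 on the 4 arrays of day 3, and 1130 and 1280 in control and 1980 and 1550 in knockout at day 9. From day 0 to day 9 it rose by 2.29 ± 0.29 in control and by 2.77 ± 0.29 in knockout (adjusted p = 5.64e-06 and 7.54e-07). The knockout readings were above those of the control at day 9, but the difference of 0.44 ± 0.29 was not called (95% confidence interval −0.18 to 1.05, adjusted p = 0.515).

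Cacna1g was read by 3 probes that passed, and these gave the same picture. Each was detected on all 4 arrays of day 9, and 1 of the 3 also on 1 control day 6 array. At day 9 the probes read 143 to 367 in control and 132 to 382 in knockout. They rose from day 0 at least 1.64-fold, 2.32-fold and 1.17-fold in control and at least 1.66-fold, 2.35-fold and 1.19-fold in knockout, with adjusted p values of 1.82e-06 or lower. The genotype differences at day 9 were −0.32, −0.33 and −0.32 and none was called (adjusted p from 0.34 to 0.567).

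The auxiliary calcium channel subunits Cacna2d3 and Cacnb2 were detected on all 16 arrays. Cacna2d3, an alpha2delta subunit that promotes the placement of channels in the membrane, read between 1450 and 2850 on every array. Its group means lay between 10.60 and 11.38 on the log2 scale, and it was called neither between the genotypes nor between day 0 and day 9. Cacnb2, a beta subunit that modulates gating, had its highest group mean at day 3 in control (8.25) and fell from day 0 to day 9 with log2 changes of −0.81 ± 0.20 in control and −1.07 ± 0.20 in knockout (adjusted p = 0.00225 and 0.000239).

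Across all tested channels, the course of differentiation moved more probes than the genotype did. From day 0 to day 9, 15 of the 19 probes (12 genes) were called in the control, which is 78.9% against 68% of all tested probes. Of these, 10 were higher and 5 lower at day 9, where 33.7% of all tested probes were higher and 34.3% lower. In the knockout 15 were called as well (12 genes), or 78.9% against 68.6% of all. Again 10 were higher and 5 lower, against 34% and 34.5% of all tested probes. The median change of the 19 probes was 0.85 in control and 0.64 in knockout, against −0.01 over all tested probes in each genotype. Every tested probe of Cacna1g, and those of Kcnk3, Kcnv2, Kcnk2, Kcnh2, Kcnn1 and Kcnmb2, entered the test through day 9 groups alone. Those of Kcna5 and Kcnc4 entered through day 6 and day 9 groups alone. The Kcnk1 probe entered through day 0 and day 3 groups alone, and the Hcn3 probe through knockout days 0, 3 and 6 alone. The counts of rises and falls and these medians follow in part from that filter, as do the changes of those probes given above. The difference between the 2 changes was called for 2 probes, Hcn2 and Kcnmb2 (10.5% against 1.72%).

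**Figure D5:**
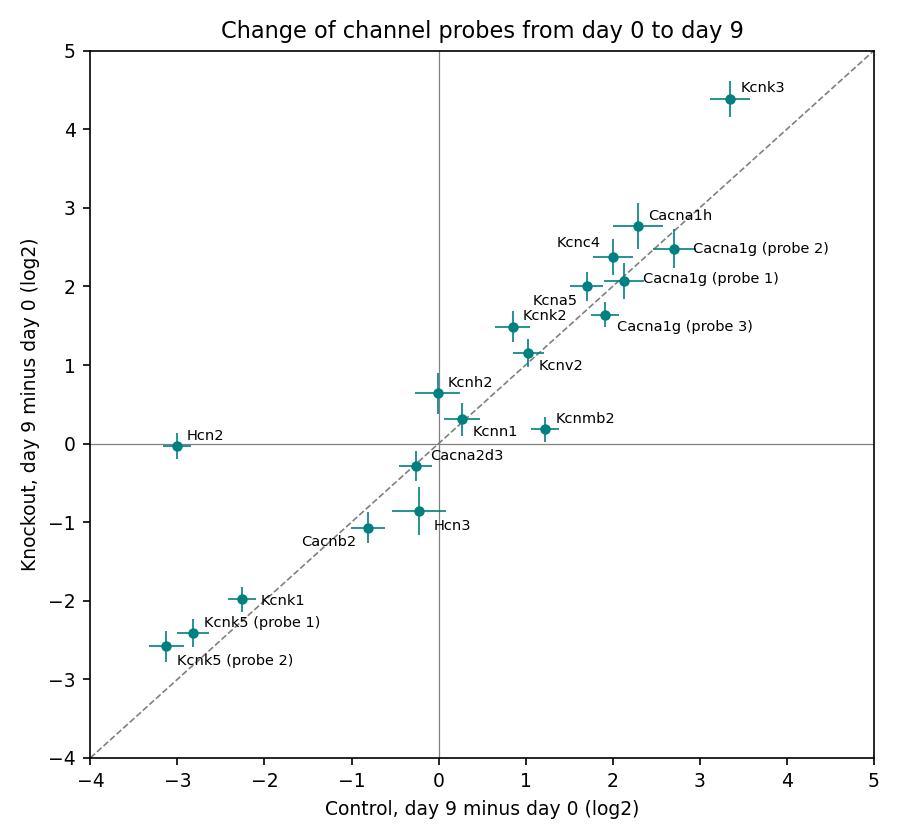
Log2 change from day 0 to day 9 in control (horizontal axis) and in knockout (vertical axis) for the 19 tested channel probes, with bars of 1 standard error and a dashed line of equal change. Hcn2 (−3.01 in control, −0.03 in knockout) and Kcnmb2 are the 2 probes whose change was called different between the genotypes, and changes of probes under detection on one of the days are fitted against background.

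Among the sodium channel genes, Scn3b stood out below the detection filter, a feature chosen after its values were seen. Scn3b encodes a beta subunit that alters the gating and surface level of sodium channels in neurons and heart. Its probe ILMN_1215136 read between −61.7 and −32.6 on all 8 control arrays. In the knockout it read −40.4 and −17.0 at day 0, −21.6 and −54.4 at day 3, 33.3 and 33.0 at day 6, and 104 and 80.6 at day 9. The knockout arrays of days 6 and 9 were above every control array, and 1 of them, at day 9, counted as detected.

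When the test was run on all 25697 probes without a filter, the Scn3b probe was called higher in the knockout on days 6 and 9, with adjusted p values of 0.00436 and 1.93e-06. Since the probe was picked for this pattern, these p values are a description. Its other probe stayed between −67.4 and −32.9 on all arrays. Scn2b, with a similar role, read 54.9 and 94.3 on the knockout day 9 arrays and −10.9 and 4.51 on the control ones, and was called at day 9 without a filter (adjusted p = 0.0216). No size of difference is given for either gene, since the control arrays were not above background and the knockout arrays were at or near it.

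Of 8 channel genes listed as REST targets from general knowledge, 3 were looked at and the others were not analysed here. The calcium-activated potassium channel gene Kcnn4 did not exceed an intensity of 10.9 on any array and Kcnq3, an M-current subunit, did not exceed 1.98, and both were never detected in either genotype. Cacna1h, the third, was tested and not called between the genotypes on any day.

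Genes whose proteins assemble with or regulate these channels were mostly undetected too. Of 27 such partners on the array, measured by 42 probes, 7 were tested. At day 3, 1 was higher in the knockout, Cntnap2, which clusters potassium channels along axons (0.89 ± 0.19, adjusted p = 0.0108). Cntnap2 entered the test through the knockout groups of days 0 and 3 alone, so its p is a description. At day 9, 1 was lower, Nedd4l, a ubiquitin ligase that removes sodium channels from the membrane (−0.64 ± 0.13, adjusted p = 0.00864). None was called at days 0 and 6. From day 0 to day 9, 2 rose and 4 fell in control, and 3 rose and 4 fell in knockout. Gem and Rem2, small GTPases that restrain calcium channels, rose in both genotypes, and Fgf13, Cntnap2, Stac2 and Nedd4l fell in both. Amigo2 rose in the knockout and entered the test through knockout day 9 alone. Gem entered through days 6 and 9 alone, and Rem2 through days 3, 6 and 9 alone. Stac2 entered through knockout day 0 alone and Cntnap2 through knockout days 0 and 3 alone. The changes of these 5 genes, and the counts that include them, follow in part from that filter.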

How the data were processed

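The deposited table held, per the file headers, a non-normalized intensity and a detection p-value for 25697 probes on 16 Illumina arrays (biotinylated cRNA from total RNA). The deposited intensity values had background subtracted, as judged from the values, since 25.5% to 28.0% of them per array were below 0. The authors' second table held normalized intensity values and served as an alternative. No upstream software was named in the sources used here.

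Intensities were processed with neqc of limma 3.58.1 (R 4.3.3, statmod 1.5.0): normexp with negative controls inferred from the deposited p-value, an offset of 16, quantile normalization and log2. Differences are therefore on a log2(value + 16) scale and understate changes of dim probes. Probes with detection p below 0.01 on both arrays of at least 1 group were tested (10241). With lmFit and eBayes, a model with 1 mean for each group took in all 16 arrays (8 residual and 6.46 prior degrees of freedom), for 8 comparisons, with Benjamini-Hochberg adjustment over the 10241 probes in each. Every adjusted p is from this limma fit, except where the text names another setting, such as the fit without a filter. Probes, not genes, were tested, and all probes of each channel gene that passed are given. For marker and partner genes 1 probe per gene was used, the one with the highest mean level. For tests it was chosen among probes that passed the filter, and for levels, sums and detection among all. A marker or partner named as undetected was undetected by that probe. The number of arrays limits the precision. The fit was tested on simulated data. Groups came from the labels. Members and lists were chosen with earlier results of these data known.

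Values on every array are given for channels called between the genotypes or in the difference in change. Other channels that passed are given with their changes or ranges, and those below the filter are named. Channel symbols were matched by Entrez identifier to the RefSeq gene table, which matched all 168 probes and renamed 0. Arrays with the same replicate number in different groups did not deviate together. Alternatives were no background correction, the authors' normalized values, median centring, an offset of 50, no filter, 1 probe per gene, the replicate number as a block, leaving out each array in turn, and, chosen after seeing the data, a detection p below 0.05.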

Additional observations from a re-analysis of the deposited data

Results flagged for a closer look

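Of the 19 tested channel probes, 2 changed differently from day 0 to day 9 in the genotypes by limma's test of the difference itself. For Hcn2, the change in the knockout minus that in the control was 2.98 on the log2 scale (adjusted p = 1.16e-06). All 4 knockout arrays of days 0 and 9 were above all control arrays of the same day. For Kcnmb2, the same difference was −1.04 (adjusted p = 0.0222), and it rests on 1 group above background, the control at day 9, through which alone the probe entered the test.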

How the results depend on the processing

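Counts of channel probes called moved under several settings. They are given without the share of all probes called in the same setting, so they describe only how the calls moved. Without background correction and without the offset, changed together, 0 were called at day 0, 0 at day 3, 1 at day 9 and 1 for the difference in change. With the authors' normalized values these counts were 0, 1, 1 and 1. Median centring left 1 for the difference in change. Without a filter, all 168 channel probes among 25697 in all were tested, so these counts do not compare with those of the main fit. Then 2 were called at day 0, 4 at day 3, 2 at day 6, 24 for the change in control and 23 for the change in knockout. At a detection p below 0.05, chosen after seeing the data, 34 channel probes (20.2%) and 13535 of all probes (52.7%) passed, and 2 channel probes each were called at days 0 and 6. Leaving out 1 array at a time gave 0 to 2 calls at day 0, 1 to 2 at day 3, 1 to 2 at day 6, 2 to 3 at day 9, 3 to 4 on average, 15 to 15 and 14 to 15 for the changes in control and knockout, and 1 to 2 for the difference in change. With the replicate number as a block, the counts were 1, 3, 1 and 4 on the 4 days, 3 on average, 15 and 15 for the changes in control and knockout, and 2 for the difference in change. The numbers do not pair the arrays, since deviations of same-numbered arrays correlated between −0.182 and 0.141 over 28 pairs of groups, with 1 over 0.1. The causes of these shifts were not tested, except that removing the filter adds probes and leaving out an array removes one.

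Of 2104 results of single channel probes under all of these alternatives, 2041 stayed on the same side of the threshold, 48 lost a call, 15 gained one and 0 reversed. The Hcn2 calls at days 6 and 9, on average and for the difference in change held throughout, and the Hcn2 call at day 3 was lost only without background correction (adjusted p = 0.193). The limits are 2 arrays per group, probes near background whose fitted sizes depend on the offset, and dim channels that the arrays could not detect.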

Other observations

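Some channel probes that never reached detection on both arrays of a group were called between the genotypes when all probes were tested with limma without a filter. These are signals at the background, so no size of difference is given. The Shaw-type potassium channel gene Kcnc1 was called higher in the knockout on day 9 (adjusted p = 0.0432), with intensities between −18.6 and 63.0 over all arrays and detection on none. The inward rectifier gene Kcnj2 was called higher on day 3 (adjusted p = 0.0371), with intensities between −21.2 and 38.4 and detection on none. The helper gene Kcne1l was called lower on day 3 (adjusted p = 0.00219), with detection on 1 array, and the calcium channel beta subunit gene Cacnb1 was called lower on day 0 (adjusted p = 0.0478), with detection on none. Over time, Cacna1a was called lower on day 9 than on day 0 in control and in knockout (adjusted p = 0.00114 and 2.12e-06), with a highest intensity of 113 on any array.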
